A study of Mus musculus with 24 samples.

Results

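Glutathione and thioredoxin are the 2 main thiol systems that keep the inside of a mammalian cell reduced, and 10 genes of these systems were followed here in activated CD8+ T cells. They were chosen by name, for their place in the pathways: Gclc, Gclm and Gss, which make glutathione, Ggt1, which breaks it down outside the cell, Gsr, Gpx1 and Gpx4, which recycle and use it, Txn1 and Txnrd1, the thioredoxin pair, and the regulator Nfe2l2. Earlier results of these data were known when the choice was made, so the shares of members called below are a description. All 10 were among the 23420 genes of the files, and all 10 were among the 11470 genes that had enough counts to be tested.

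The 24 libraries came from 6 mice, each sampled at 0, 4, 8 and 24 h. Every mouse carried 2 floxed alleles of Tcf7 (Tcf7FL/FL), the gene of the transcription factor TCF1, and the OT-I T cell receptor transgene (OTI+). The 3 mice labelled cKO (mice 1 to 3) also carried E8i-cre, a recombinase under an enhancer of the CD8 locus. The 3 mice labelled WT (mice 4 to 6) were E8i-cre-, so an effect of the recombinase and one of the deletion cannot be told apart. CD8+ T cells were isolated from spleen and lymph nodes, sampled before plating (0 h) or after 4, 8 or 24 h on antibodies against CD3 and CD28 (1 ug/mL) with IL2 (6 ng/mL), and sorted at 1000 cells per library. No group was kept without stimulation for the later times, so time in culture and stimulation cannot be told apart.

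Libraries held 5846265 to 9700397 expected counts and 13694 to 17214 genes with a count, and no 2 libraries were identical. On the leading principal component, the 4 h library of mouse 3 (cKO) and the 8 h libraries of mice 2 (cKO) and 5 (WT) lay apart from the others of their time, and results that turn on them are given with and without them. Gene-level Tcf7 RNA was 499 to 567 TPM in WT and 681 to 719 TPM in cKO at 0 h. At 4 h it was 180 to 205 TPM in WT and 251 to 271 TPM in cKO, and at 8 h 52.6 to 87.4 and 73.6 to 127 TPM. The order was reversed at 24 h, with 62.6 to 77.0 TPM in WT and 35.7 to 38.3 TPM in cKO. The groups overlapped only at 8 h. This level does not check the deletion, since counts cover the whole gene, so groups are named by their labels. CD8 T cell markers, of which 6 of 7 were in the files, summed to 6135 to 6564 TPM in WT and 6759 to 7150 TPM in cKO at 0 h and to 1261 to 1315 and 1326 to 1455 TPM at 24 h, higher in cKO without overlap at all 4 times. The summed level of the B cell markers was 32.6 to 36.6 TPM in WT and 41.5 to 52.7 TPM in cKO at 0 h, nearly all of it Cd79b, 0.91 to 7.88 TPM at 4 and 8 h and 14.4 to 18.3 TPM at 24 h. The markers of myeloid cells reached at most 2.42 TPM in any library, those of CD4 T cells 1.96 TPM and those of neutrophils 0.37 TPM. The NK cell markers, mostly Eomes, summed to 1.11 to 4.95 TPM in WT and 2.17 to 10.4 TPM in cKO, and the dendritic cell markers to 2.26 to 7.13 and 2.97 to 9.66 TPM, both higher in cKO without overlap at 4, 8 and 24 h. Erythroid markers were at 0.71 TPM or less in WT and reached 6.12 TPM in a cKO library at 0 h and 21.6 TPM in one at 4 h, nearly all of it Hba-a1. Without overlap, cKO was also higher for B cell markers at 0 and 8 h, for erythroid markers at 4 and 8 h and for CD4 T cell markers at 0 and 4 h. The part of these levels in the results was not tested.

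Glutathione is a small peptide made in 2 steps, by glutamate-cysteine ligase, whose catalytic subunit is GCLC and whose modifier subunit is GCLM, and then by glutathione synthetase, the product of Gss. Glutathione peroxidases spend it to remove peroxides, and glutathione reductase (Gsr) restores it with NADPH. Thioredoxin reduces disulfide bonds in proteins and is itself restored by the selenoprotein thioredoxin reductase. NRF2, the protein of Nfe2l2, binds antioxidant response elements next to many of these genes. T cells that leave rest depend on glutathione and thioredoxin for growth and DNA synthesis.

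Because NRF2 is known to act through such elements, the promoters of the members were read for the core letters TGACNNNGC on either strand. RefSeq promoter windows of 300 bases (250 before and 50 after a start, GRCm38.p6) were at hand for 8 of the 10 members, all but Gclc and Gsr, and made 16 windows, since some genes have several starts. A match was found in 6 of these 16 windows, in Ggt1 (3 windows), Gclm, Txnrd1 and Nfe2l2, and in 12.4% of all 32851 windows. Of those 6 windows, 3 belong to Ggt1, so the windows are not independent. The core of the AP-1 site, TGANTCA, was found in 0 of the 16 windows and in 7.8% of all windows. The E-box CACGTG was in 1 of the 16, a Ggt1 window, and in 7.2% of all. The TCF/LEF core CTTTGAT, the class of site that TCF1 binds, was also in 1 of the 16, again a Ggt1 window, and in 3.7% of all. A match is a description of the letters and says nothing of binding. The following 4 stretches show matches that lie before the start of members whose levels change below, with the match in capitals. Not printed are the antioxidant response element matches of Nfe2l2, 240 bases before its start, and of Ggt1 promoter 2, 36 bases before. The stretches round them hold 49 and 28 exonic bases.
Gclm, chr3:122245393-122245461, plus strand, match on the opposite strand 134 bases before the start: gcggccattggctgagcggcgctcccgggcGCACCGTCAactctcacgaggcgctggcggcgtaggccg
Txnrd1, chr10:82859084-82859152, plus strand, match on the opposite strand 92 bases before the start of its promoter 2: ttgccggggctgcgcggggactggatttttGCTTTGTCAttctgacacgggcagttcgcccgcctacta
Ggt1, chr10:75571447-75571515, plus strand, match on the same strand 83 bases before the start of its promoter 3: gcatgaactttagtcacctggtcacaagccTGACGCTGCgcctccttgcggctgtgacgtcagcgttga
Ggt1, chr10:75568417-75568483, plus strand, TCF/LEF letters on the same strand 215 bases before the start of its promoter 2: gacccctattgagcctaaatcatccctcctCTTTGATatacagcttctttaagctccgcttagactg

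Across activation the 10 genes split into 4 courses in WT and cKO cells. Txn1, Txnrd1, Gsr, Gss and Gclm were higher at 24 h than before plating, Gpx1 and Gpx4 fell and then rose above their starting level, Gclc rose and fell back, and Ggt1 and Nfe2l2 fell. At 24 h against 0 h, 7 members were called higher and 2 lower in WT, at an adjusted p under 0.05, and the same numbers in cKO. These shares stand against 36.9% of all tested genes called higher and 40.1% called lower in WT, and 37.3% and 39% in cKO. The median log2 fold change of the members was 0.91 in WT and 0.95 in cKO, against −0.08 and −0.07 over all genes tested. Levels below are TPM, a level scaled by gene length and to a fixed total in each library. They are listed in the order of mice 4, 5 and 6 for WT and of mice 1, 2 and 3 for cKO. TPM cannot show a change in total RNA per cell, and in such bulk libraries fewer cells of a type and less RNA per cell cannot be told apart.

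**Figure D1:**
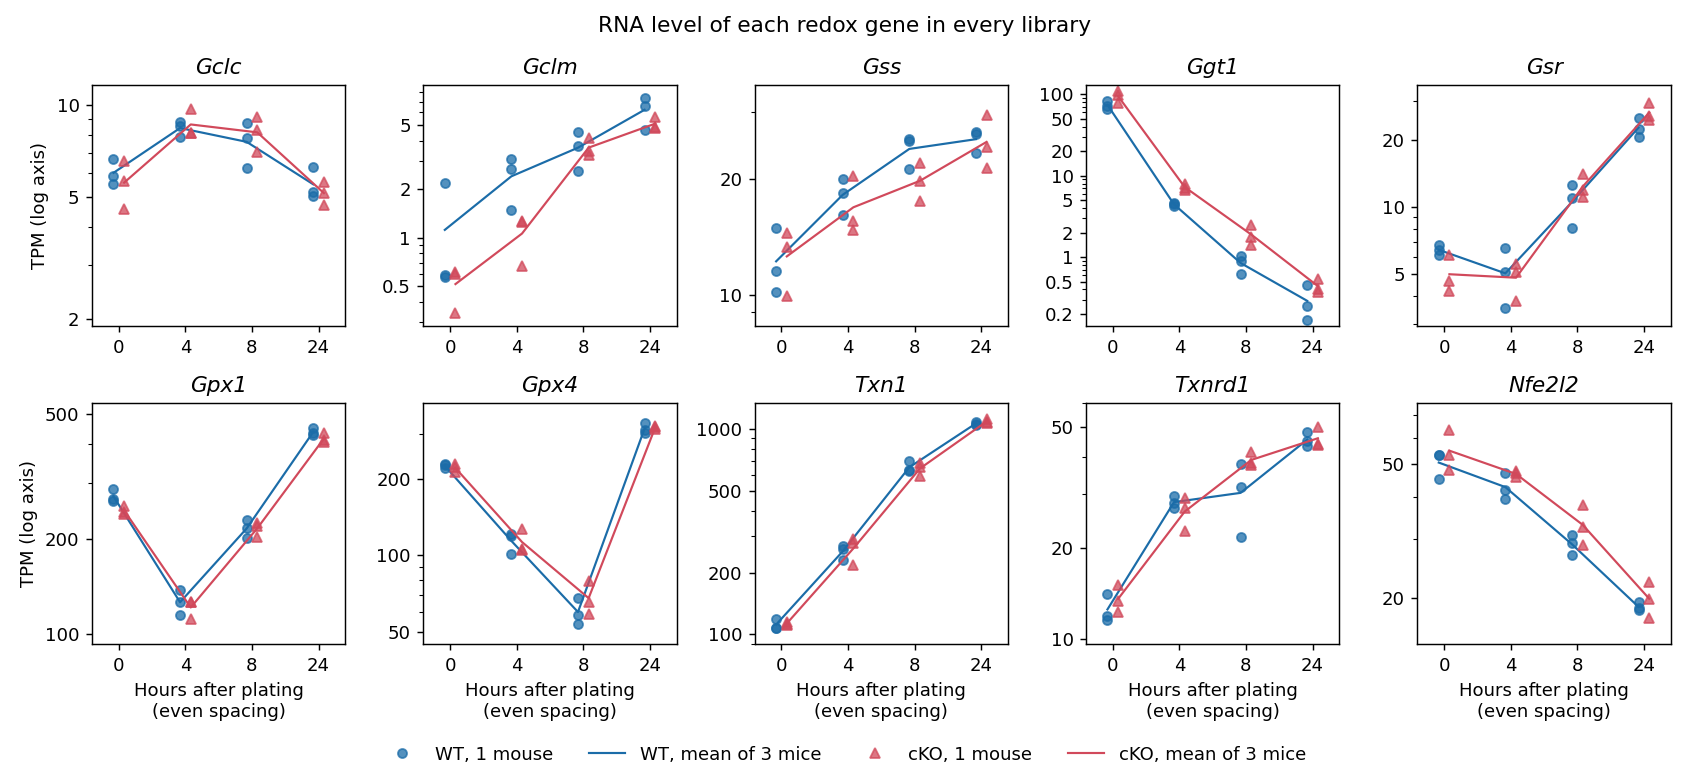
RNA level (TPM, log axis) of each of the 10 genes in all 24 libraries by hours after plating, with blue circles for WT mice, red triangles for cKO mice and lines through the means of 3 mice; times are evenly spaced and each panel has its own range. Txn1 climbs in every step to 1047 to 1116 TPM, Gpx4 is lowest at 8 h, and Ggt1 falls to 0.17 to 0.54 TPM.

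The glutamate-cysteine ligase subunits took different courses. Gclc (chromosome 9, 77754535 to 77794485, plus strand, GRCm38) was at 5.85, 6.65 and 5.54 TPM in WT at 0 h, at 8.84, 8.52 and 7.90 at 4 h, at 6.22, 8.75 and 7.80 at 8 h and at 5.22, 5.05 and 6.28 at 24 h. The 0 h and 4 h libraries did not overlap, while those of 0 h and 24 h did. Levels in cKO were 5.64, 4.57 and 6.55 TPM at 0 h, 9.70, 8.11 and 8.14 at 4 h, 8.28, 7.04 and 9.13 at 8 h and 5.61, 4.73 and 5.15 at 24 h. The rise by 4 h was 0.58 in log2 in WT (SE 0.182, adjusted p = 0.00621) and 0.73 in cKO (SE 0.180, adjusted p = 0.000682). The WT call was lost without mouse 4 (adjusted p = 0.051). From 8 to 24 h Gclc fell by 0.60 in log2 in WT (SE 0.178, adjusted p = 0.00455) and by 0.70 in cKO (SE 0.180, adjusted p = 0.0012). The WT fall missed the threshold with no filter on low counts (−0.46, adjusted p = 0.0525), without mouse 5 (−0.36, adjusted p = 0.173) and without the 8 h libraries of mice 2 and 5 (−0.41, adjusted p = 0.0677). Gclc was the only member not called at 24 h against 0 h, in either genotype (adjusted p = 0.688 in WT and 0.917 in cKO).

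Gclm (chromosome 3, 122245557 to 122270732, plus strand) was the scarcest member at 0 h. It stood at 2.20, 0.59 and 0.57 TPM in WT, from 17, 6 and 5 counts, and at 0.34, 0.61 and 0.60 TPM in cKO, from 4, 7 and 5 counts. The 0 h library of WT mouse 4 stood above the other 5. At 4 h the WT values were 1.49, 2.67 and 3.06 TPM and the cKO values 1.27, 1.25 and 0.67 TPM. At 8 h the WT values were 4.56, 2.59 and 3.71 TPM and the cKO values 3.47, 4.15 and 3.25 TPM. At 24 h they reached 4.67, 7.39 and 6.60 TPM in WT and 4.82, 4.84 and 5.65 TPM in cKO, without overlap with 0 h. Over 24 h the log2 change was 2.58 in WT (SE 0.373, adjusted p = 1.22e-07) and 3.38 in cKO (SE 0.414, adjusted p = 3.52e-09). Over the alternative settings the WT value was 1.83 to 3.62, the lowest with limma on log2(TPM + 1) and the highest without mouse 4. The step from 0 to 4 h was called in WT (1.24, SE 0.423, adjusted p = 0.0116), but not without mouse 5 (adjusted p = 0.173) or mouse 6 (adjusted p = 0.242). The same step in cKO was 1.15 (SE 0.522, adjusted p = 0.058) and was called without the 4 h library of mouse 3 (1.40, adjusted p = 0.0314) and without WT mouse 4 (1.15, adjusted p = 0.028). Gclm shares 296 exonic bases with Gm17494 on the opposite strand, and a protocol that does not mark strand cannot assign reads from these bases. It shares 244 with the pseudogene Gm6061 on its own strand, where marking strand would not separate the reads.

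Gss, which adds glycine to complete glutathione (chromosome 2, 155563181 to 155592810, minus strand), was at 11.5, 10.2 and 15.0 TPM in WT at 0 h. It was at 20.0, 18.5 and 16.2 TPM at 4 h, at 25.5, 21.3 and 25.2 at 8 h and at 26.3, 23.4 and 26.6 at 24 h. The cKO mice had 14.5, 9.92 and 13.3 TPM at 0 h, 14.7, 15.5 and 20.4 at 4 h, 17.6, 22.1 and 19.8 at 8 h and 24.3, 29.4 and 21.4 at 24 h. All 24 h libraries lay above all 0 h libraries. The log2 change over 24 h was 1.11 in WT (SE 0.167, adjusted p = 2.61e-07) and 1.07 in cKO (SE 0.164, adjusted p = 3.32e-07). Single steps were less certain. The first 4 h gave 0.68 in WT (adjusted p = 0.00112) and 0.50 in cKO (adjusted p = 0.0123), the latter lost without mouse 2 (0.39, adjusted p = 0.107), without mouse 3 (0.38, adjusted p = 0.128) or without only the 4 h library of mouse 3 (0.38, adjusted p = 0.0908). That cKO call was also lost with library sizes in place of TMM scaling (0.33, adjusted p = 0.103) and with only the compared groups in the fit (0.47, adjusted p = 0.0523). The step from 4 to 8 h was called in WT (0.44, adjusted p = 0.0279) and lost without mouse 5 (adjusted p = 0.0988) or mouse 6 (adjusted p = 0.237), with no filter on low counts (adjusted p = 0.076) and with limma on log2(TPM + 1) (adjusted p = 0.0572). From 8 to 24 h the cKO change was 0.29 (SE 0.160, adjusted p = 0.123), and it was called without the 8 h libraries of mice 2 and 5 (0.42, adjusted p = 0.0456). It was also called with library sizes (adjusted p = 0.0314), with no filter (adjusted p = 0.0448) and with only the compared groups (adjusted p = 0.0316). Gss overlaps Acss2 by 395 exonic bases and the antisense genes Gssos1 and Gssos2 by 322 and 385, all on the opposite strand, so part of its reads cannot be told apart from theirs.

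Ggt1, a cell-surface enzyme that starts the breakdown of extracellular glutathione, fell more than any other member. Ggt1 (chromosome 10, 75561604 to 75586200, plus strand) was at 66.5, 72.8 and 83.8 TPM in WT at 0 h, at 4.60, 4.25 and 4.51 TPM at 4 h, at 1.02, 0.90 and 0.62 TPM at 8 h and at 0.17, 0.25 and 0.45 at 24 h. The cKO libraries held 97.1, 109 and 79.3 TPM at 0 h, 6.77, 8.03 and 7.0 at 4 h, 2.50, 1.79 and 1.39 at 8 h and 0.37, 0.41 and 0.54 at 24 h. Within each genotype, the libraries of each time lay below all libraries of the time before it. In the first 4 h the level became 15.6-fold lower in WT (log2 −3.96, SE 0.171, adjusted p = 7.58e-21) and 12.3-fold lower in cKO (log2 −3.62, SE 0.159, adjusted p = 1.17e-20). From 4 to 8 h it fell by 2.35 in log2 in WT (SE 0.296) and by 1.88 in cKO (SE 0.233). The last step rested on 2, 3 and 5 counts in the WT libraries at 24 h, and its call in WT (−1.59, SE 0.480, adjusted p = 0.00498) was lost without mouse 4 (adjusted p = 0.0662) or mouse 5 (adjusted p = 0.0694) and with only the compared groups in the fit (adjusted p = 0.0594). The whole change was −7.89 in log2 in WT (SE 0.242, adjusted p = 7.98e-26) and −7.63 in cKO (SE 0.226, adjusted p = 3.29e-26). Its size rests on 10 counts in WT and 15 in cKO at 24 h, summed over 3 libraries. These SEs may be too small, since the last step in WT, from the same 24 h counts, had an SE of 0.480. Over the alternative settings the whole change was −8.22 to −5.87 in WT and −7.87 to −6.05 in cKO.

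Gsr (chromosome 8, 33652523 to 33698163, plus strand), which returns oxidised glutathione to its reduced form, began to rise only after 4 h. In WT it was at 6.76, 6.45 and 6.12 TPM at 0 h, 3.52, 5.11 and 6.54 at 4 h, 12.5, 11.0 and 8.09 at 8 h and 20.7, 22.5 and 25.0 at 24 h. Levels in cKO were 4.23, 6.11 and 4.69 TPM at 0 h, 5.59, 5.12 and 3.79 at 4 h, 11.9, 14.1 and 11.1 at 8 h and 29.4, 25.5 and 24.6 at 24 h. The 0 h and 4 h libraries overlapped, and the 8 h and 24 h libraries stood above them without overlap. The first step was −0.26 in log2 in WT (SE 0.214, adjusted p = 0.294) and smaller than its SE in cKO. The next step was 1.12 in WT (SE 0.204, adjusted p = 2.67e-05) and 1.39 in cKO (SE 0.201, adjusted p = 7.43e-07), and the last was 1.01 (SE 0.174) and 1.05 (SE 0.172). Over 24 h Gsr rose 3.65-fold in WT and 5.56-fold in cKO.

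The peroxidases fell before they rose, and reached their lowest level at different times. Gpx1 (chromosome 9, 108338903 to 108340343, plus strand), which removes hydrogen peroxide, was at 267, 263 and 288 TPM in WT at 0 h, 126, 114 and 137 TPM at 4 h, 201, 217 and 230 TPM at 8 h and 434, 451 and 428 at 24 h. The cKO mice had 240, 244 and 255 TPM at 0 h, 126, 126 and 111 at 4 h, 220, 226 and 203 at 8 h and 433, 406 and 412 at 24 h. In both genotypes its 4 h libraries were the lowest and its 24 h libraries the highest, without overlap. The drop by 4 h was −1.04 in log2 in WT (SE 0.102, adjusted p = 4.52e-11) and −0.95 in cKO (SE 0.101, adjusted p = 3.89e-10). The 2 later steps were 0.84 (SE 0.102) and 0.91 (SE 0.098) in WT and 0.88 (SE 0.102) and 0.91 (SE 0.098) in cKO, all called.

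Gpx4 (chromosome 10, 80047166 to 80056439, plus strand), the peroxidase that acts on lipid peroxides in membranes and guards against ferroptosis, was at 228, 220 and 227 TPM in WT at 0 h. It was at 101, 120 and 121 TPM at 4 h, at 58.3, 53.8 and 67.9 TPM at 8 h and at 304, 332 and 311 at 24 h. The cKO libraries held 222, 212 and 228 TPM at 0 h, 128, 106 and 106 at 4 h, 79.5, 58.8 and 65.6 at 8 h and 323, 319 and 313 at 24 h. Every step was without overlap between libraries, and Gpx4 kept falling from 4 to 8 h while Gpx1 was already rising. The fall from 4 to 8 h was 0.87 in log2 in WT (SE 0.110, adjusted p = 5.02e-08) and 0.69 in cKO (SE 0.109, adjusted p = 3.02e-06). The rise from 8 to 24 h was 4.92-fold in WT (log2 2.30, SE 0.107, adjusted p = 8.66e-20) and 2.19 in log2 in cKO (SE 0.107). At 24 h Gpx4 stood above its 0 h level by 0.52 in log2 in WT (SE 0.098, adjusted p = 1.2e-05) and 0.61 in cKO (SE 0.098, adjusted p = 9.81e-07). The annotation holds a transcribed pseudogene, Gpx4-ps2, and how reads of such copies were assigned is not given in the sources used here.

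Txn1, thioredoxin itself (chromosome 4, 57943373 to 57956411, minus strand), had the highest level of the 10 from 4 h on. It was at 119, 108 and 107 TPM in WT at 0 h, 259, 270 and 231 TPM at 4 h, 624, 697 and 631 TPM at 8 h and 1063, 1047 and 1081 at 24 h. Levels in cKO were 115, 111 and 112 TPM at 0 h, 291, 278 and 217 at 4 h, 653, 681 and 592 at 8 h and 1064, 1082 and 1116 at 24 h. Each time lay above the one before in every library of both genotypes. The successive log2 changes were 1.27 (SE 0.112), 1.42 (SE 0.108) and 0.60 (SE 0.104) in WT and 1.29 (SE 0.111), 1.33 (SE 0.107) and 0.72 (SE 0.104) in cKO, all called. The whole rise was 9.79-fold in WT (adjusted p = 1.42e-23) and 10.1-fold in cKO (adjusted p = 8.2e-24). A processed pseudogene, Txn-ps1, is annotated on chromosome 1.

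Txnrd1, the cytosolic thioredoxin reductase (chromosome 10, 82833951 to 82897712, plus strand), was at 11.6, 14.1 and 11.9 TPM in WT at 0 h, 27.0, 29.7 and 28.2 at 4 h, 37.7, 21.7 and 31.7 at 8 h and 45.1, 43.2 and 48.1 at 24 h. The cKO mice had 15.1, 12.3 and 13.4 TPM at 0 h, 29.2, 27.1 and 22.8 at 4 h, 38.0, 37.5 and 41.4 at 8 h and 50.1, 43.8 and 44.0 at 24 h. Its rise came mostly in the first 4 h, 2.40-fold in WT (log2 1.26, SE 0.127, adjusted p = 8.28e-11) and 2.05-fold in cKO (log2 1.04, SE 0.125, adjusted p = 5.66e-09). In WT the 8 h library of mouse 5 was below all 4 h libraries, and the step from 4 to 8 h was not called (0.13, SE 0.120, adjusted p = 0.41). In cKO that step was called (0.61, SE 0.119, adjusted p = 7.77e-05). The step from 8 to 24 h was called in WT (0.50, SE 0.116, adjusted p = 0.00034) and not in cKO (0.19, SE 0.115, adjusted p = 0.16). The cKO step was called with library sizes in place of TMM scaling (0.31, adjusted p = 0.041), with no filter on low counts (0.29, adjusted p = 0.0343) and with only the compared groups in the fit (0.25, adjusted p = 0.0148). The interaction at 8 h, which asks whether the change since 0 h differed between the genotypes, was 0.25 for Txnrd1 (SE 0.175, adjusted p = 0.72), and the steps themselves were not tested against each other.

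Nfe2l2 (chromosome 2, 75675513 to 75704641, minus strand) fell while most of the genes above rose. In WT it was at 45.2, 53.2 and 53.3 TPM at 0 h, 39.4, 47.0 and 41.8 at 4 h, 30.7, 26.8 and 29.2 at 8 h and 19.4, 18.6 and 18.4 at 24 h. The cKO libraries held 47.9, 63.4 and 53.2 TPM at 0 h, 45.6, 47.0 and 47.7 at 4 h, 37.8, 28.7 and 32.5 at 8 h and 19.9, 22.3 and 17.5 at 24 h. The 8 h libraries lay below the 4 h libraries, and the 24 h libraries lower still, without overlap. The first step was not called in either genotype (−0.15, SE 0.111, adjusted p = 0.238 in WT and −0.14, SE 0.109, adjusted p = 0.259 in cKO). With library sizes in place of TMM scaling it was called, at −0.32 in WT (adjusted p = 0.0134) and −0.31 in cKO (adjusted p = 0.0129), a setting that moves the median of all genes at this step by −0.16 and −0.17. The later steps were −0.51 (SE 0.113) and −0.72 (SE 0.116) in WT and −0.46 (SE 0.112) and −0.78 (SE 0.116) in cKO, all called. Over 24 h Nfe2l2 became 2.61-fold lower in WT (adjusted p = 1.71e-13) and also 2.61-fold lower in cKO (adjusted p = 1.3e-13). RNA levels of Nfe2l2 do not measure NRF2 protein, which is known to be set largely by its breakdown.

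Counted by step, 5 members were called higher and 3 lower from 0 to 4 h in WT, against 30% and 29.1% of all tested genes. In cKO the same step had 4 higher and 3 lower, against 29.6% and 27.6%. From 4 to 8 h the counts were 4 higher and 3 lower in WT, against 21.9% and 19.7%, and 5 higher and 3 lower in cKO, against 20.8% and 19.6%. From 8 to 24 h they were 5 higher and 3 lower in WT, against 24.7% and 34.1%, and 4 higher and 3 lower in cKO, against 25.2% and 32.1%. Gclm from 8 to 24 h in WT was just outside the threshold (0.70, SE 0.315, adjusted p = 0.0543) and was called in 10 of 16 alternative settings, among them the fit without the 4 h library of mouse 3 (0.70, adjusted p = 0.0483).

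**Figure D2:**
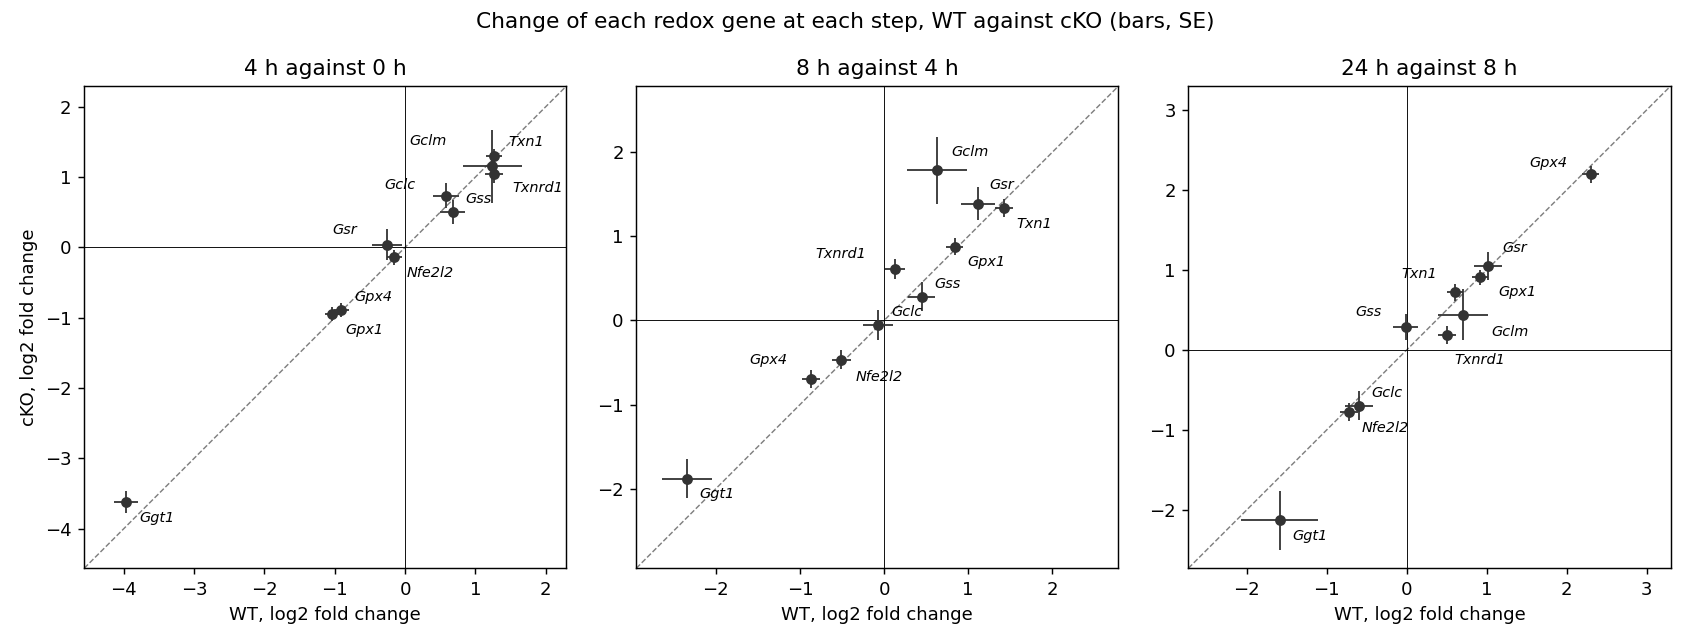
Fitted log2 fold change of each gene at the 3 successive steps, WT on the horizontal and cKO on the vertical axis, with bars of 1 SE and a dashed line where the genotypes are equal. Most genes lie near the line, Ggt1 is lowest in every panel, and Gpx4 moves from −0.87 in WT at 8 h against 4 h to 2.30 at 24 h against 8 h.

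The rank of the 10 genes by TPM was reshuffled as the cells were activated. At 0 h in WT the order of mean TPM was Gpx1 (273 ± 13.3, SD, n = 3), Gpx4 (225 ± 4.26), Txn1 (112 ± 6.75), Ggt1 (74.4 ± 8.76), Nfe2l2 (50.6 ± 4.62), Txnrd1 (12.5 ± 1.40), Gss (12.2 ± 2.46), Gsr (6.44 ± 0.320), Gclc (6.01 ± 0.573) and Gclm (1.12 ± 0.935). Of these neighbours, Txnrd1 and Gss, and Gsr and Gclc, overlapped between libraries. The 10 genes summed to 773 ± 22.5 TPM in WT at 0 h, 603 ± 14.8 at 4 h, 1032 ± 29.0 at 8 h and 1941 ± 16.5 at 24 h. In cKO the sums were 767 ± 5.44, 608 ± 57.9, 1044 ± 56.5 and 1951 ± 11.2 TPM (SD, n = 3). The share of this sum held by Txn1 went from 14.5% at 0 h to 63.0% at 8 h in WT, while that of Gpx4 went from 29.1% to 5.81%. At 24 h the shares were 54.8% for Txn1, 22.5% for Gpx1 and 16.3% for Gpx4. Spread between mice was least for Gpx1, with a median coefficient of variation of 5.16% over the 8 groups, and greatest for Gclm, with 28.5%.

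No member was called different between cKO and WT at any time. Of 40 tests, 0 were called with edgeR and 0 with DESeq2, 6 had an unadjusted p under 0.05, and the smallest adjusted p was 0.12. All tested genes were called in 0.445% of cases at 0 h, 0.82% at 4 h, 0.183% at 8 h and 0.105% at 24 h. In TMM-scaled CPM, cKO and WT libraries were without overlap for 3 members at 0 h, namely Gsr, Gpx1 and Gpx4, all lower in cKO, against 13.5% of all genes. At 4 h they were Ggt1 (higher) and Gclm (lower), against 16% of all genes. At 8 h they were Ggt1 and Txnrd1 (higher) and Gss (lower), against 10.5%, and at 24 h Gsr (higher), against 13.5%.

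The 6 unadjusted p-values under 0.05 were those of Ggt1 at 0, 4 and 8 h, Gclm at 0 and 4 h and Txnrd1 at 8 h. The log2 fold change of Ggt1 in cKO over WT was 0.32 (SE 0.130, adjusted p = 0.476) at 0 h, 0.66 (SE 0.202, adjusted p = 0.12) at 4 h, 1.13 (SE 0.346, adjusted p = 0.213) at 8 h and 0.59 (SE 0.524, adjusted p = 1) at 24 h. The values by mouse above show the 4 h and 8 h libraries apart, and those of 0 h and 24 h overlapping. Gclm was at −1.08 (SE 0.519, adjusted p = 0.637) at 0 h and −1.17 (SE 0.426, adjusted p = 0.228) at 4 h, from 28 counts in WT against 16 in cKO at 0 h and 56 against 27 at 4 h, summed over 3 libraries. Without mouse 4 the 0 h value of Gclm was −0.22. Txnrd1 at 8 h was at 0.33 (SE 0.118, adjusted p = 0.291), with the low library of WT mouse 5 in the comparison. Over 15 alternative settings, fits without that library among them, it was 0.18 to 0.44 and was never called (adjusted p from 0.107 to 0.887).

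The intervals give a range for each difference. They belong to single tests and are not adjusted over all genes, so a difference whose interval leaves out 0 could still go uncalled. Examples were Ggt1 at 0, 4 and 8 h, Gclm at 0 and 4 h and Txnrd1 at 8 h. Each range below runs from the lowest to the highest bound over the 4 times, so it can span 0 where a single interval does not. For Txn1 the 95% intervals of the log2 difference at the 4 times lay between −0.28 and 0.24, for Gpx4 between −0.26 and 0.34, and for Gpx1 between −0.38 and 0.14. For Nfe2l2 they lay between −0.15 and 0.36, and for Txnrd1 between −0.38 and 0.56. For Gclc, Gss and Gsr the outer bounds were −0.51 to 0.36, −0.64 to 0.35 and −0.79 to 0.55. They were widest for Ggt1 (−0.44 to 1.81) and Gclm (−2.10 to 0.64).

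**Figure D3:**
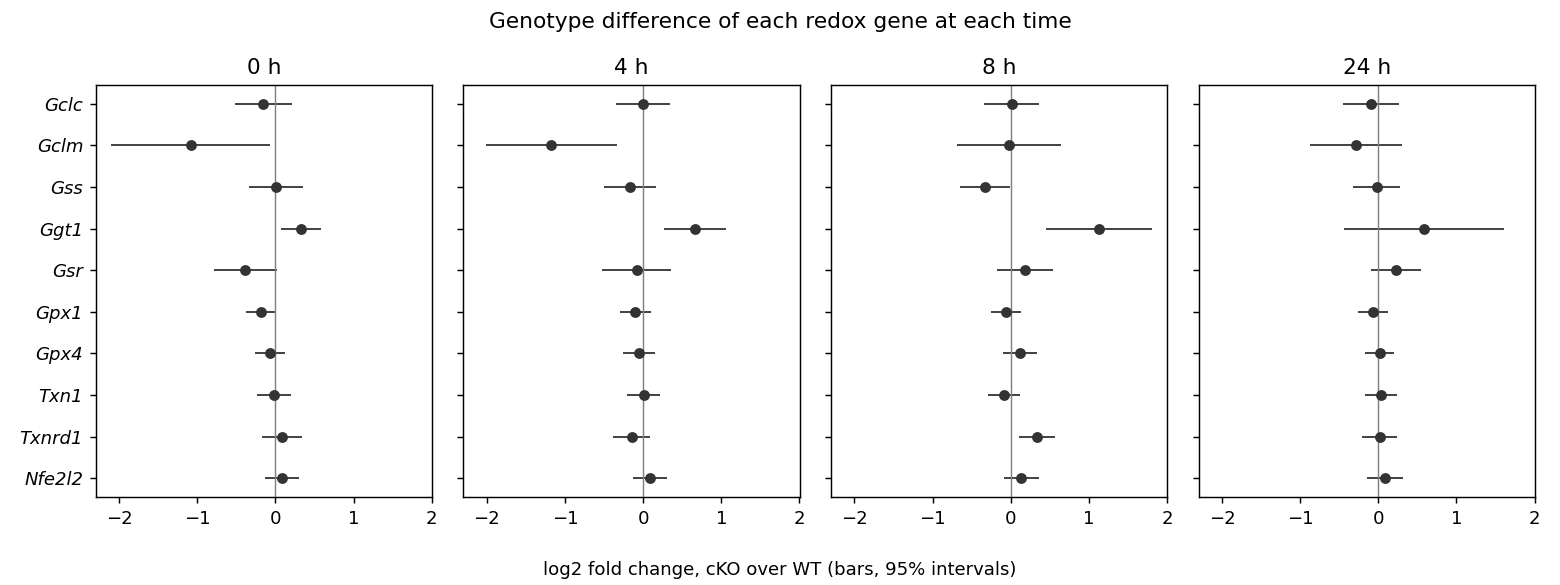
Log2 fold change of cKO over WT for each gene at 0, 4, 8 and 24 h, with 95% intervals as bars. Ggt1 lies to the right of 0 at every time, from 0.32 to 1.13, Gclm lies furthest to the left at 0 and 4 h, and no difference was called after adjustment over all genes.

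Averaging each mouse over its 4 times, a comparison added because Ggt1 had been seen higher in cKO at each time, gave a log2 difference of 0.57 for Ggt1 (SE 0.136, adjusted p = 0.0424 with limma, over all genes tested). The means were 2.56 to 2.80 log2 CPM in the 3 cKO mice and 2.05 to 2.20 in the 3 WT mice, and 1.52% of all genes were called. This call was lost when mouse 1, 2, 4, 5 or 6 was left out (adjusted p = 0.165, 0.163, 0.159, 0.135 and 0.0881), and held without mouse 3 (adjusted p = 0.0256). Since it was chosen for the direction it tests, it is a description of these mice. Gclm was at −0.51 on this scale (SE 0.166, adjusted p = 0.193), and no other member had an adjusted p under 0.5.

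The interactions gave 0 calls among the members at 4, 8 and 24 h with edgeR and with DESeq2, with 3 of 30 unadjusted p-values under 0.05. Over all genes the share called was 0.00872%, 0.00872% and 0.0174%. The members with an unadjusted p under 0.05 were Ggt1 at 8 h (0.80, SE 0.371, adjusted p = 0.6) and Gsr at 8 h (0.57, SE 0.275, adjusted p = 0.622) and at 24 h (0.61, SE 0.262, adjusted p = 1).

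The other genes of the pathways were taken from lists drawn up from textbook knowledge, with earlier results of these data known. A gene may stand on several lists. Of 126 tested list genes, 0 were called with edgeR in a genotype comparison, where 36 of 504 unadjusted p-values were under 0.05, and 0 in an interaction, where 20 of 378 were. DESeq2 called 3 of the genotype differences and 0 interactions. They were Ahcy, of the methionine cycle, at 0 h (log2 0.37 for cKO over WT, SE 0.098, adjusted p = 0.0285), and Sepp1, a secreted selenoprotein, at 4 h (−0.61, SE 0.165, adjusted p = 0.0182) and 8 h (−0.76, SE 0.168, adjusted p = 0.00349). With edgeR the adjusted p of these 3 was 0.101, 0.113 and 0.099. Sepp1 was at 85.8 to 94.6 TPM in WT and 50.3 to 78.4 TPM in cKO at 4 h, and at 51.8 to 75.6 and 27.4 to 49.6 TPM at 8 h, without overlap. The changes over time are therefore described, in WT, with counts from 0 to 24 h unless said otherwise. Of 17 genes that supply or carry glutathione or its precursors, the methionine cycle included, 13 rose and 1 fell (76.5% and 5.88%), with a median log2 change of 1.43. Of all genes tested, 36.9% rose and 40.1% fell at 24 h and 30% and 29.1% at 4 h, with medians of −0.08 and −0.04, and each list below is given beside these. Cth, the enzyme that releases cysteine from cystathionine, had 0 counts in the WT libraries at 0 h, 2 at 4 h and 118 at 8 h, and stood at 185 ± 10.5 TPM at 24 h. With 3 counts over the group taken as the floor, Cth was at least 1470-fold higher at 24 h. Slc1a4, a transporter of neutral amino acids, went from 0.477 ± 0.252 to 20.9 ± 2.49 TPM (log2 5.47, SE 0.267). Shmt2, the mitochondrial enzyme that makes glycine from serine, went from 123 ± 4.03 to 667 ± 18.9 TPM (log2 2.49, SE 0.099), and Ahcy, which yields homocysteine, from 72.0 ± 6.68 to 336 ± 2.01 TPM. By 4 h 11 of the 17 (64.7%, against 30% of all genes) had already risen, with a median of 1.10, or 1.02 with Cth at its bound. Shmt1, the cytosolic partner of Shmt2, was at 16.5 ± 1.42 TPM at 0 h and 283 ± 24.9 TPM at 4 h (log2 4.19, SE 0.155). Mat2a, which makes S-adenosylmethionine, was at 167 ± 31.3 and 728 ± 51.7 TPM.

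Of 22 genes that use or break down glutathione, 4 were called higher and 11 lower at 4 h (18.2% and 50%, against 30% and 29.1% of all genes), with a median of −0.58. At 24 h 9 were higher and 5 lower than at 0 h (40.9% and 22.7%, against 36.9% and 40.1%), with a median of 0.29, so the share called higher was near that of all genes. Gstp1, a glutathione transferase, went from 543 ± 25.2 TPM to 183 ± 13.8 at 4 h and stood at 504 ± 11.9 TPM at 24 h. Glrx, glutaredoxin, was at 40.8 ± 8.12, 12.3 ± 1.13 and 43.0 ± 1.04 TPM at these times. Ggt5, a relative of Ggt1 that acts on leukotrienes and glutathione, fell from 9.11 ± 0.805 to 0.217 ± 0.133 TPM (log2 −5.28, SE 0.366), and the microsomal transferase Mgst2 from 103 ± 17.5 to 9.30 ± 3.62 TPM. Glrx3, a glutaredoxin that handles iron-sulfur clusters, rose from 85.7 ± 1.10 to 242 ± 14.3 TPM, and Gsto1 from 15.0 ± 2.51 to 84.8 ± 6.01 TPM.

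In the thioredoxin and peroxiredoxin list 14 of 20 genes rose and 4 fell (70% and 20%, against 36.9% and 40.1% of all genes), with a median of 0.88. At 4 h 8 were higher and 8 lower (median −0.06). Txnip, which binds and inhibits thioredoxin, fell from 165 ± 5.81 TPM at 0 h to 43.3 ± 1.27 at 4 h, 14.4 ± 2.17 at 8 h and 8.16 ± 0.926 at 24 h (log2 −4.28, SE 0.118), while Txn1 rose. Prdx1, a peroxiredoxin that thioredoxin restores, rose from 404 ± 19.6 to 1090 ± 37.9 TPM. Prdx4, the peroxiredoxin of the endoplasmic reticulum, was at 5.19 ± 2.17 TPM at 0 h and 5.71 ± 2.48 at 8 h, and at 61.4 ± 0.385 TPM at 24 h. Txnl1, a thioredoxin-like protein of the proteasome, went from 43.4 ± 2.67 to 167 ± 6.26 TPM.

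Of 12 tested genes on the NADPH supply list, 8 rose and 1 fell (66.7% and 8.33%, against 36.9% and 40.1% of all genes), with a median of 0.83. The folate enzymes Mthfd2 (33.6 ± 4.81 to 522 ± 8.90 TPM) and Mthfd1 (41.8 ± 3.39 to 202 ± 6.40 TPM) rose. So did Mthfd1l, another folate enzyme (39.8 ± 1.18 to 90.0 ± 2.16 TPM), and the NAD kinase Nadk (75.8 ± 6.11 to 154 ± 2.51 TPM). Not every gene on this list makes NADPH itself, and Mthfd1l is an example of those that do not. Of 12 other genes of antioxidant defence and lipid peroxidation, 8 rose and 2 fell (66.7% and 16.7%, against the same shares), with a median of 0.99. This list also holds Acsl4 and Lpcat3, which are not antioxidant genes. Sod1, the cytosolic superoxide dismutase, rose from 712 ± 37.5 to 1751 ± 9.79 TPM and Sesn2, a stress-induced sestrin, from 1.77 ± 0.981 to 11.7 ± 2.41 TPM. Catalase (Cat) fell from 91.7 ± 4.37 to 33.2 ± 3.80 TPM, and Sesn1, another sestrin, from 92.9 ± 13.4 to 18.6 ± 1.68 TPM.

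Among 14 genes that control NRF2, 5 were higher and 5 lower (35.7% each, near the 36.9% and 40.1% of all genes), with a median of 0.03. Sqstm1, whose protein p62 sequesters the NRF2 inhibitor KEAP1, was at 373 ± 15.6 TPM at 0 h, 457 ± 8.67 at 4 h and 121 ± 1.47 at 24 h. The coactivators Ep300 and Crebbp fell by 1.67 and 1.21 in log2, and Nfe2l1, the relative of Nfe2l2 that drives proteasome genes, rose by 0.96 (SE 0.110). Keap1 was at 34.1 ± 2.98, 18.8 ± 2.21 and 30.8 ± 0.644 TPM at 0, 4 and 24 h. Of 17 genes listed here as NRF2 targets outside the members, 6 rose and 10 fell (35.3% and 58.8%, against 36.9% and 40.1%), with a median of −0.41. Among those that fell was Trp53inp1 (log2 −4.15, SE 0.176), whose place on this list was not checked. Slc7a11, the cystine importer, rose from 2.19 ± 0.501 to 10.1 ± 0.0971 TPM, and Ephx1, an epoxide hydrolase, fell from 57.7 ± 2.53 to 3.71 ± 0.371 TPM.

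Gpx4, Gpx1 and Txnrd1 are selenoproteins, and 6 of 10 genes that make or insert selenocysteine rose while 2 fell (60% and 20%, against 36.9% and 40.1% of all genes), with a median of 0.71. Trnau1ap, which binds the selenocysteine tRNA, went from 46.4 ± 5.57 to 135 ± 4.37 TPM, and Sepsecs, which completes the aminoacyl-tRNA, from 5.86 ± 0.400 to 13.4 ± 0.745 TPM. Among 12 other selenoproteins, 6 rose and 4 fell (50% and 33.3%, against the same shares), with a median of 0.14. Sepp1 fell from 292 ± 29.4 to 29.1 ± 1.24 TPM and Sepw1 from 277 ± 6.81 to 121 ± 5.96 TPM. The gene listed as 2700094K13Rik fell from 135 ± 17.6 TPM to 37.9 ± 3.48 at 4 h and stood at 392 ± 23.9 TPM at 24 h.

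**Figure D4:**
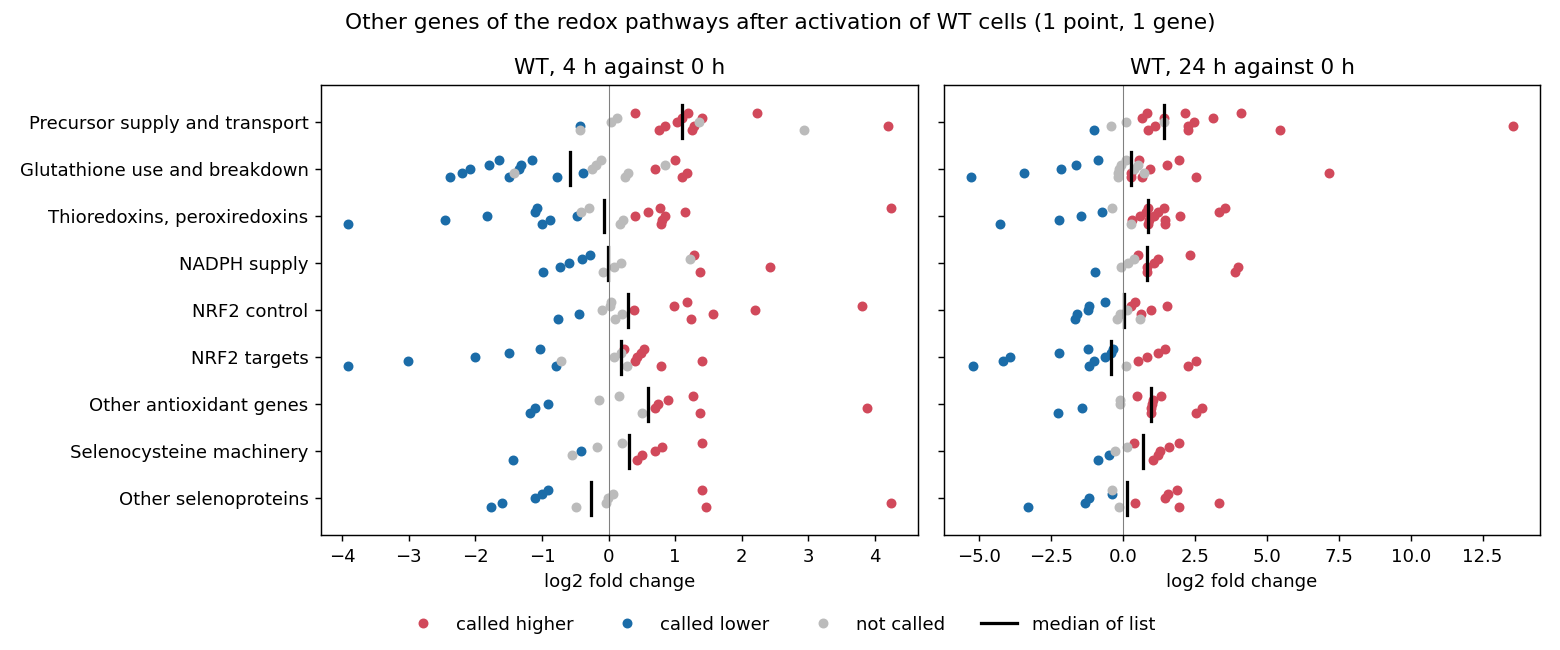
Log2 fold change of every tested gene of 9 redox lists in WT cells at 4 h and at 24 h against 0 h; red points were called higher, blue lower, grey not called, and a black bar marks the list's median. Precursor supply and transport, with carriers of glutathione itself, has its median at 1.10 at 4 h and 1.43 at 24 h. Glutathione use moves from −0.58 to 0.29. The point furthest right at 24 h is Cth, whose fitted value rests on 0 counts at 0 h.

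The course of each member over the 8 groups was also compared with all genes of at least 10 TPM on average, by the root mean square difference of centred mean log2 CPM, where 0 would be an equal course. The genes nearest to Txn1 were Hspd1 (0.12), the mitochondrial chaperonin, Acot7 (0.16) and Nudt5 (0.19). Those nearest to Gss were Eif3l (0.05), Ncbp1 (0.06) and Eif4a3 (0.07), and to Gsr Sfxn1 (0.17), Gapdh (0.18) and Alad (0.18). Gpx1 was nearest to Bcat2 (0.07), Gpx4 to Haus5 (0.14), Gclc to Zfp960 (0.07), Gclm to Pdf (0.20), Txnrd1 to Tmem183a (0.11) and Nfe2l2 to Nrbp1 (0.05). The genes nearest to Ggt1 were Sema4a (0.80), Rab37 (0.84) and Arl4c (0.85). This distance grows with the size of a gene's change, so it cannot be compared between members. The group means in TPM spanned 328-fold for Ggt1, whose lowest mean rests on 10 counts, and 1.68-fold for Gclc.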

How the data were processed

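STAR, RSEM, DESeq2 and the build mm10 are named per the submitters' processing notes, with versions not given in the sources used here. The deposited files, per the file headers, give for each gene an expected count, RSEM's estimate, which need not be whole, and TPM, the length-scaled level; FPKM was not used. Libraries were made with Smart-seq2 from 1000 cells each, without molecular identifiers, so reads are not independent molecules.

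The rounded expected counts went through edgeR 4.0.16 (R 4.3.3): filterByExpr over the 8 groups, TMM scaling and a robust quasi-likelihood fit of 8 group means. This gave 15 comparisons, each adjusted by Benjamini and Hochberg over all 11470 genes, two-sided, and called at an adjusted p under 0.05. An SE is the size of the log2 fold change over the square root of its F statistic, and 95% intervals are normal intervals from it. Positions are from the GENCODE annotation of GRCm38. All 10 members are named. Of each list, up to 4 called genes with the smallest adjusted p in WT at 24 h against 0 h, and up to 2 in each direction at 4 h, could be named; the text takes examples from these. The 3 nearest genes were found for each member. Members and lists were chosen with earlier results of these data known. The mice are the same animals at all times. Deviations from the group means correlated at −0.08 to 0.16 between libraries of a mouse (36 pairs, median 0.02), and a fit with the mouse as a block was an alternative. Other alternatives were DESeq2 1.42.0, library sizes without TMM, other filters, removal of Rn45s, only the groups compared, limma 3.58.1 on log2(TPM + 1), and fits without each mouse or the libraries that stood apart. The model was also run on simulated counts, for the comparison of cKO with WT at 0 h only. That simulation held no mouse effect and placed changes only in genes above a minimum mean level. It does not cover members with few counts, and no result above rests on it.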

Additional observations from a re-analysis of the deposited data

How the results depend on the processing

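Over 15 alternative settings for each genotype comparison, and 16 for the others, the number of members called was 0 in every genotype comparison and interaction. It was 7 to 9 (8 as reported) from 0 to 4 h in WT, 6 to 7 (7) from 4 to 8 h, 6 to 9 (8) from 8 to 24 h and 9 from 0 to 24 h. In cKO it was 6 to 8 (7), 8, 7 to 9 (7) and 9. With the mouse as a replicate block the counts were the same, at 8, 7, 8 and 9 in WT, 7, 8, 7 and 9 in cKO and 0 in the interactions, so the pairing changed no count. Single differences were recomputed for members where they were called or larger than their SE, for the list genes that could be named, and for the averaged Ggt1. Uncalled member differences no larger than their SE were left out, and the list genes had been picked for small adjusted p. The counts of changes may therefore be too low for the genes at large. Of the 2705 recomputed values, 21 gained a call, 23 lost one and 2 changed sign. They belong to 6, 7 and 2 differences. Those that changed sign were Gpx4 between genotypes at 8 h without mouse 1 (−0.0073, within −0.0073 to 0.22 over the fits without a mouse) and the 24 h interaction of Gclm without mouse 4 (−0.24, within −0.24 to 1.29); the cause was not tested. Over all genes, the number called between genotypes ranged at 0 h from 21 to 136 (51 as reported), at 4 h from 31 to 249 (94), at 8 h from 7 to 135 (21) and at 24 h from 6 to 105 (12). In the interactions it was 0 to 45 (1), 1 to 34 (1) and 1 to 21 (2). Library sizes without TMM also moved the median of all genes from 8 to 24 h by 0.19 in WT and 0.12 in cKO. Depth limits Gclm before 8 h and Ggt1 after 4 h, where libraries held few counts.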
